A study of Mus musculus with 12 samples.

Results

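The 34 genes described here encode heat shock proteins and the co-chaperones that work with them, together with Hsf1, the transcription factor of the heat shock response. They were taken by name from a table of 50508 mouse gene models. The table holds counts of unique molecular identifiers (UMIs, 1 for each captured transcript molecule) from single cells sorted into 96-well plates. The source was adult C57BL/6 intestine, from which the longitudinal muscle was collected with its attached myenteric plexus (LMMP), a preparation rich in ganglia of the enteric nervous system. Tamoxifen was given to every mouse. All cells carried Dclk1-tdTom, a red reporter tied to Dclk1, a gene of a microtubule-binding kinase. They were sorted without surface CD49b (integrin alpha 2; neuronal cells by the labels) or with it (glial cells by the labels). Mice in homeostasis received 3 mg tamoxifen at 8 or 9 weeks of age and were collected 10 days later. Irradiated mice received the same dose at the same ages, 10.5 Gy 7 days after it, and were collected 3 days after irradiation. Their labels call the 10 days from tamoxifen to collection a total trace, so the reporter need not show Dclk1 activity at collection. Each of the 4 groups of gate by treatment had 3 plates, each plate holding cells of 2 pooled mice, and each pool filled 1 plate of either gate, so that replicate numbers match across gates. The reporter marks only cells in which Dclk1 was active, so the plates do not sample all enteric neurons or glia.

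Chaperones bind unfolded or partly folded proteins and keep them from aggregating. HSP70 proteins take up clients delivered by J-proteins (HSP40), and exchange factors of the HSP110 and BAG families reset HSP70 by releasing its ADP. Adaptors pass some clients on to HSP90, while the small heat shock proteins hold clients without using ATP. Part of the network is always made, and another part is switched on by Hsf1, which binds heat shock elements, repeats of GAA and its complement TTC, when proteins unfold. The set is named cytosolic, but 5 members work elsewhere: Hspa9, Hspd1 and Hspe1 work in mitochondria, Hspa13 is found in microsomes, and Hspb11 is the ciliary transport protein IFT25.

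Heat shock elements were searched in the 250 bases before the RefSeq start sites (GRCm38.p6) because the members that differed most between the gates include known Hsf1 targets. A match was either GAANNTTC or TTCNNGAA, that is a pair of units in opposite orientation. Each of these patterns is its own reverse complement, so that a search of 1 strand covers both, and neighbouring matches may share a unit. The RefSeq table held 25 of the 34 members; Hspa8, Hspa9, Hspa13, Hspb2, Cryab, Hsp90aa1, Hsp90ab1, Dnajc5 and Hsf1 had no entry. A match was present before at least 1 start site of 10 of the 25 members (40.0%) and of 3932 of 27025 genes in all (14.55%). A row of 3 alternating units stood before 3 of the 25 members (12%), namely Hspd1, Hspe1 and Dnajb6, and before 139 of all genes (0.51%). The counts are of genes and not of separate sites. Hspd1 and Hspe1 are both counted for the same DNA, and Hspa1a and Hspa1b for near-identical windows. These matches are letters in a window, not measured binding sites.

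The windows before Hspa1a and Hspb1 are shown whole because these genes lead the difference between the gates, with the matches in capitals. Hspa1a is a protein-coding gene at chr17:34969190-34972156 on the minus strand, and the window lies at chr17:34972157-34972406. The window of its near-identical neighbour Hspa1b (chr17:34956436-34959238, minus strand) has the same letter at 247 of 250 positions (98.8%). Hspb1 lies at chr5:135887919-135889563 on the plus strand, with its window at chr5:135887669-135887918.
Hspa1a: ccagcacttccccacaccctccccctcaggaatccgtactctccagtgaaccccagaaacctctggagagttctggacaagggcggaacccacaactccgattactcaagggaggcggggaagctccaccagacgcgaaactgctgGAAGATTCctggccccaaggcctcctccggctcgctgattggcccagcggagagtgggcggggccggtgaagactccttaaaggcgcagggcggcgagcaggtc
Hspb1: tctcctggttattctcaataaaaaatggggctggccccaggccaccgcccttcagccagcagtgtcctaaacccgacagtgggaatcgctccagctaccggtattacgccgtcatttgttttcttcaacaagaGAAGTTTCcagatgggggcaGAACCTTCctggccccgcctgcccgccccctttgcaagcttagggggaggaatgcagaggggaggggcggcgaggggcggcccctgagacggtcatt

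For the other members with a match, stretches of 30 bases around it show how the element is arranged, again with the match in capitals and read along the gene's strand. Hspd1 and Hspe1 share 1 upstream region, from which they are read in opposite directions, so that the pair below is the same DNA (chr1:55088053-55088082) on its minus and plus strand. The others lie at chr5:149636351-149636380 (minus strand, Hsph1), chr7:30553170-30553199 (plus, Hspb6), chr4:40722333-40722362 (plus, Dnaja1), chr3:152193846-152193875 (minus, Dnajb4) and chr5:29735843-29735872 (plus, Dnajb6). The match of Hspa1b has the same 30 bases as that of Hspa1a.
Hspd1: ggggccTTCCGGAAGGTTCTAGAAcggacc
Hspe1: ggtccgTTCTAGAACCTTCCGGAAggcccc
Dnajb6: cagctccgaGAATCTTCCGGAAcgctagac
Hsph1: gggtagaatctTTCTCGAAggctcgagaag
Hspb6: aagtaattattGAAGTTTCtaaataaggaa
Dnaja1: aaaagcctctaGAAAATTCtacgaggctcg
Dnajb4: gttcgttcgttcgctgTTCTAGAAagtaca

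By the results given further on, matches stood before 4 of the 6 members in the RefSeq table that were higher in CD49b+ cells (Hspa1a, Hspa1b, Hspb1 and Hspb6), before 4 of the 10 that were lower (Hspd1, Hsph1, Dnaja1 and Dnajb6) and before 2 of the 7 that passed no threshold (Hspe1 and Dnajb4). Hspa1a and Hspa1b, with near-identical windows, are counted here as separate genes. Members with a match therefore stood on both sides of the difference between the gates. Dnajb1 and Hspb8, which carry results below, had no match in their windows.

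Of 1150 wells, 964 held at least 1000 UMIs and 500 detected genes and were retained, 213 to 266 in each group. Summed over retained wells, plates held 541729 to 746674 UMIs in the CD49b- gate and 150561 to 243340 in the CD49b+ gate, and the median well held 5904.5 to 8335 and 2110 to 2680 UMIs. All 11 tested neuron markers were lower and all 10 tested glia markers higher in the CD49b+ gate, as labelled. Neuron markers made up 0.0142% to 0.019% of UMIs on the 3 homeostasis CD49b+ plates and 0.159%, 0.106% and 0.0173% on the irradiated ones (replicates 1, 2 and 3). Much of this lay in 4 CD49b+ wells that held both marker lists, here called mixed wells (neuron markers above 10% of the UMIs of both lists). Replicate 1 had 1 of them and replicate 2 had 3, and without them the shares were 0.0594% and 0.0277%. The same 96 well barcodes were used on all plates by design. Levels below are CPM after TMM scaling of plate sums, given in the order of replicates 1, 2 and 3; plate sums cannot tell fewer cells of a kind from less RNA per cell. Tests are edgeR quasi-likelihood F tests on plate sums, Benjamini-Hochberg adjusted over 8555 genes with 0.05 as the threshold.

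The gates differed in their chaperones. Of the 31 members with enough counts to test, 8 were higher in CD49b+ (glial) cells and 16 were lower, averaged over treatments, and 7 passed in neither direction. The higher ones were Hspa1a, Hspa1b, Dnajb1, Hspb1, Hspb6, Cryab, Hspb2 and Hspa14: the stress-inducible HSP70 genes and their inducible J-protein, 4 of 6 tested small heat shock proteins, and a ribosome-bound HSP70 relative. The lower ones included the constitutive HSP70 gene Hspa8, both HSP90 genes, 5 of 7 J-proteins and Hsf1 itself. Among all 8555 genes 29.6% were higher and 32.4% lower, so that the members' count lay near the background for higher calls (8 of 31) and above it for lower calls (16 of 31). The members' median log2 difference was -0.75, against -0.13 over all genes. In homeostasis alone 7 members were higher and 15 lower (background 23.5% and 26%), and after irradiation 8 and 13 (22.2% and 21.1%). With wells weighted equally in limma, the share of higher among all genes called fell from 47.7% to 26.9%.

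Levels on the 6 CD49b+ plates lay above all 6 CD49b- plates for 8 of the 31 tested members and below them all for 11 (background 16% and 19.4% of genes). Summed over all 34 members the gates were alike in size: 0.792% to 0.986% of UMIs on CD49b- plates and 0.771% to 1.05% on CD49b+ plates, ranges that overlap. The heat map of all tested members shows this exchange by role.

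**Figure D1:**
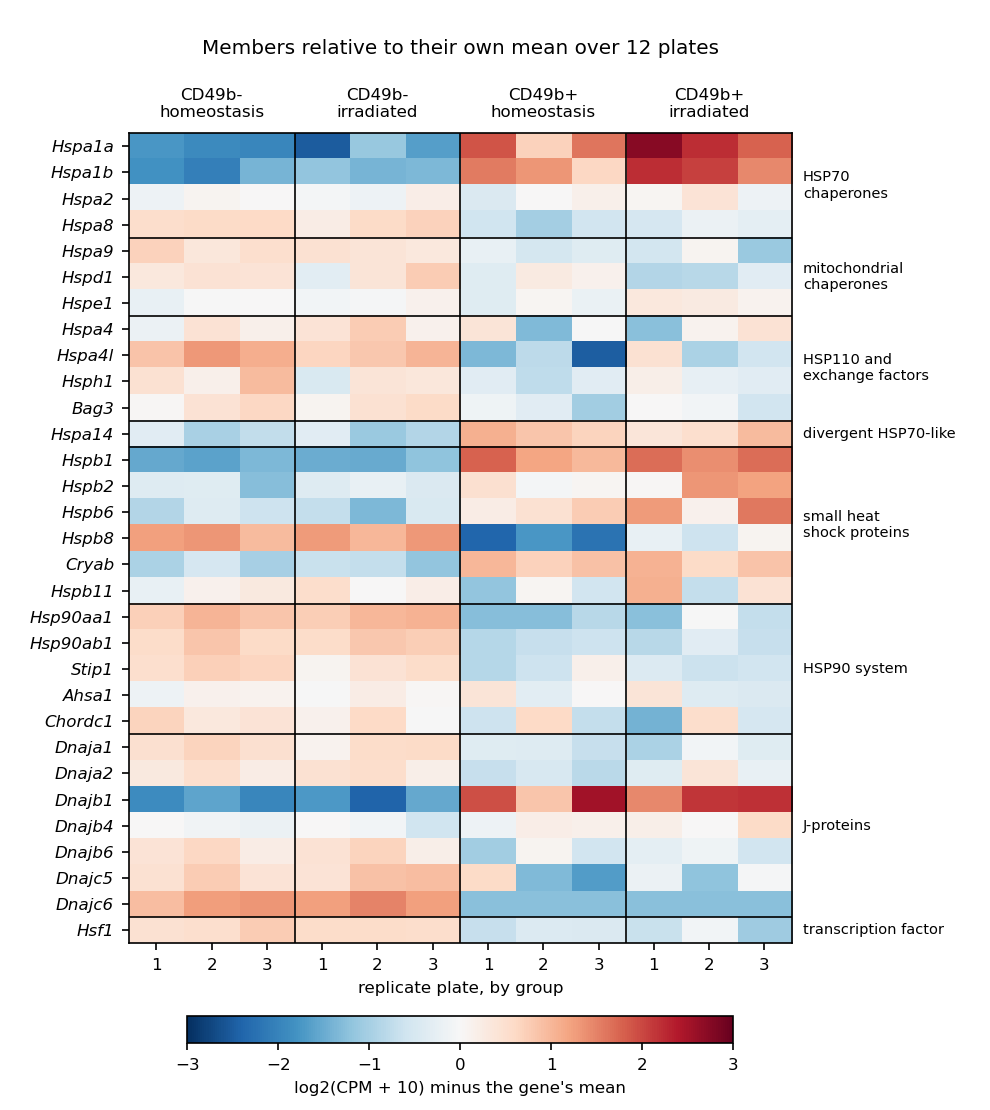
Level of the 31 tested members on each of 12 plates, as log2(CPM + 10) minus the gene's own mean over plates; rows are genes by role and columns are replicate plates 1 to 3 of each group. Hspa1a, Hspa1b, Dnajb1 and Hspb1 are red on all 6 CD49b+ plates and blue on all 6 CD49b- plates, while the HSP90 genes, Hspa8 and Hsf1 show the opposite.

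The inducible HSP70 genes had the widest gap. Hspa1a stood at 31.6, 26.8 and 25.9 CPM on the homeostasis CD49b- plates and at 14.5, 53.8 and 34.3 on the irradiated ones, against 504, 216 and 413 on the homeostasis and 921, 638 and 463 on the irradiated CD49b+ plates. Every CD49b+ plate was above every CD49b- plate, with a log2 difference of 3.99 ± 0.26 (SE; adjusted p = 4.04e-12), a 15.9-fold higher level. Hspa1b stood at 1.75, 0 and 5.75 CPM on the homeostasis CD49b- plates and at 8.29, 5.82 and 6.24 on the irradiated ones, against 113, 94.3 and 53.6 on the homeostasis and 182, 161 and 102 on the irradiated CD49b+ plates; its 6 CD49b- plates held 17 UMIs in all. The log2 difference was 4.64 ± 0.37 (SE; adjusted p = 1.42e-10). Because 65.4% of the 31-base words in the exons of Hspa1a and 68.0% of those of Hspa1b recur in other gene models, chiefly in each other, reads may have been split between the copies or dropped, and the balance between them is uncertain.

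Hspa8, the constitutive HSC70 that also strips clathrin from vesicles, went the other way. Hspa8 stood at 3540, 3682 and 3743 CPM on the homeostasis CD49b- plates and at 2891, 3670 and 3970 on the irradiated ones, against 1624, 1204 and 1652 on the homeostasis and 1727, 2189 and 2014 on the irradiated CD49b+ plates. The plates did not overlap, and the level was 2.08-fold lower in CD49b+ cells, a log2 difference of -1.06 ± 0.16 (SE; adjusted p = 4.06e-06). Other gene models share 43.6% of its exon words (Gm15459 alone 38.6%), and the small nucleolar RNA genes Snord14c, Snord14d and Snord14e overlap 6.09% of its exon bases on the same strand. Hspa2, an HSP70 best known from male germ cells, did not pass: it stood at 104, 122 and 116 and 109.8, 103 and 134 CPM on the CD49b- plates and at 82.99, 116 and 129 and 121, 156 and 102 on the CD49b+ plates, with overlapping ranges and a log2 difference of 0.05 ± 0.19 (SE; adjusted p = 0.847), and its sign turned with wells weighted equally (-0.23).

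The J-proteins that deliver clients to HSP70 split in the same manner. Dnajb1 is the inducible partner of HSP70. Dnajb1 stood at 114, 144 and 108 CPM on the homeostasis CD49b- plates and at 128, 77.1 and 147 on the irradiated ones, against 1737, 804 and 2623 on the homeostasis and 1236, 2004 and 2082 on the irradiated CD49b+ plates. The plates were far apart although the homeostasis CD49b+ plates were widely spread, and the log2 difference was 3.87 ± 0.25 (SE; adjusted p = 3.92e-12), 14.6-fold. The housekeeping J-protein Dnaja1 was lower in CD49b+ cells without overlap: 414, 470.1 and 409.8 and 315, 435 and 438 CPM on CD49b- plates against 225, 222 and 177 and 145, 274 and 224, a log2 difference of -0.96 ± 0.17 (SE; adjusted p = 3.69e-05). Dnajb6, which limits aggregation of polyglutamine proteins, stood at 214, 249 and 184 and 218, 254 and 179 CPM against 71.1, 166 and 102 and 127, 142 and 102, also without overlap (-0.86 ± 0.20 (SE; adjusted p = 6.85e-04)).

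Dnajc6, the neuronal auxilin that recruits HSC70 to clathrin-coated vesicles, was not detected in the CD49b+ gate. It stood at 35.1, 46.8 and 48.9 CPM on homeostasis and 45.6, 56.7 and 45.2 on irradiated CD49b- plates, 172 UMIs in all, and at 0 UMIs on all 6 CD49b+ plates. Against a floor of 3 counts per CD49b+ plate this is at least 2.60-fold lower, a bound that covers counting error only (adjusted p = 3.64e-07). Dnajc5, the cysteine string protein of synaptic vesicles, and Dnaja2 also passed as lower (Dnaja2 not after irradiation alone, adjusted p = 0.266), with log2 differences of -1.30 and -0.79, and Dnajb4 did not pass (0.38).

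Of the 6 small heat shock proteins tested, 4 were higher in CD49b+ cells and 1 was lower. Hspb1 (HSP25 of mice) binds actin and unfolded clients. Hspb1 stood at 109, 102 and 124 CPM on the homeostasis CD49b- plates and at 112, 110.5 and 137 on the irradiated ones, against 1156, 771 and 665 on the homeostasis and 1073, 884 and 1089 on the irradiated CD49b+ plates. The plates were separate, with a log2 difference of 3.01 ± 0.17 (SE; adjusted p = 3.55e-13), 8.06-fold, although the pseudogene Hsp25-ps1 shares 52.3% of the exon words of Hspb1. Cryab encodes alpha-B crystallin, a small heat shock protein of lens, muscle and glia. Cryab stood at 523, 714 and 503 CPM on the homeostasis CD49b- plates and at 634, 615 and 439.7 on the irradiated ones, against 2045, 1637 and 1893 on the homeostasis and 2103, 1522 and 1851 on the irradiated CD49b+ plates. Here too no plate crossed over, and the log2 difference was 1.69 ± 0.16 (SE; adjusted p = 4.55e-09).

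Hspb6 (HSP20), known from smooth and striated muscle, was scarce: 14.03, 23.4 and 18.7 and 16.6, 7.27 and 21.8 CPM on CD49b- plates against 41.5, 49.9 and 64.4 and 96.95, 37.8 and 122 on CD49b+ plates, a log2 difference of 1.95 ± 0.34 (SE; adjusted p = 3.62e-05). Hspb2, a small heat shock protein of muscle, passed at 1.35 ± 0.33 (SE; adjusted p = 0.00128), and at an adjusted p of 0.0742 it did not in homeostasis alone. It lies head to head with Cryab on chromosome 9, and 30.2% of its exon bases overlap those of Cryab on the opposite strand, so that without stranded counting their reads cannot be told apart there. Smooth muscle markers made up 0.0146% to 0.0465% of UMIs on CD49b+ plates and 0.0036% to 0.0231% on CD49b- plates. Of 8 such markers 3 were tested: Myl9, the smooth muscle myosin light chain, and Acta2, its actin, were higher in CD49b+ cells (3.85 ± 0.47 (SE; adjusted p = 2.30e-07) and 2.64 ± 0.75 (SE; adjusted p = 0.00416)), and Synpo2, an actin-binding protein, was lower (-1.72 ± 0.43 (SE; adjusted p = 0.00132)). Their part in the levels of Hspb2, Hspb6 and Cryab was not tested.

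Hspb8, which forms a complex with Bag3 that routes damaged proteins to autophagy, was the 1 small heat shock protein that passed as lower in CD49b+ cells. Hspb8 stood at 333, 353 and 270.3 CPM on the homeostasis CD49b- plates and at 339.9, 281 and 349 on the irradiated ones, against 17.8, 33.3 and 21.4 on the homeostasis and 115, 85.1 and 143 on the irradiated CD49b+ plates. The gates did not overlap, and the log2 difference was -2.61 ± 0.21 (SE; adjusted p = 2.39e-10), 6.101-fold lower in CD49b+ cells. Its partner Bag3 was also lower (-0.82 ± 0.25 (SE; adjusted p = 0.00638)). Hspb11 did not pass (-0.27), and Hspb7, a small heat shock protein of the heart, was too scarce to test: 24 UMIs in the CD49b- and 1 UMI in the CD49b+ gate, a ratio of 6.73 per UMI sequenced with a 95% counting interval from 1.10 to 277.

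Of the 5 members of the HSP90 system 3 were lower in CD49b+ cells (Hsp90aa1, Hsp90ab1 and Stip1) and 2 passed in neither direction (Chordc1 and Ahsa1). Hsp90aa1 is the inducible and Hsp90ab1 the constitutive cytosolic HSP90. Hsp90aa1 stood at 642, 793 and 705 CPM on the homeostasis CD49b- plates and at 657, 781 and 816 on the irradiated ones, against 154, 155 and 214 on the homeostasis and 158, 388 and 231 on the irradiated CD49b+ plates. Hsp90ab1 stood at 1866, 2280 and 1882 CPM on the homeostasis CD49b- plates and at 1857, 2239 and 2118 on the irradiated ones, against 694, 777 and 815 on the homeostasis and 703, 993 and 782 on the irradiated CD49b+ plates. Neither gene overlapped between the gates, and the log2 differences were -1.77 ± 0.19 (SE; adjusted p = 2.16e-08) and -1.36 ± 0.15 (SE; adjusted p = 5.82e-08); other gene models share 51.4% and 13.2% of their exon words. Stip1 (HOP), the adaptor between HSP70 and HSP90, stood at 168, 196 and 187 and 122, 159.9 and 175 CPM on CD49b- plates and at 59.3, 72.1 and 129 and 84.8, 70.9 and 74.8 on CD49b+ plates, with 1 CD49b+ plate inside the CD49b- range (-1.03 ± 0.21 (SE; adjusted p = 1.57e-04)).

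Chordc1, a zinc-binding HSP90 partner, stood at 57.9, 43.5 and 47.5 and 37.3, 55.2 and 32.8 CPM against 17.8, 55.5 and 16.1 and 6.06, 52 and 20.4 and did not pass (-0.65 ± 0.36 (SE; adjusted p = 0.124)). Chordc1 passed when either of its 2 highest CD49b+ plates was left out. Without irradiated CD49b+ replicate 2 the log2 difference was -1.24 (adjusted p = 0.0159), and without homeostasis CD49b+ replicate 2 it was -1.08 (0.0257). Ahsa1, the activator of the HSP90 ATPase, differed by -0.10 ± 0.20 (SE; adjusted p = 0.689).

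**Figure D2:**
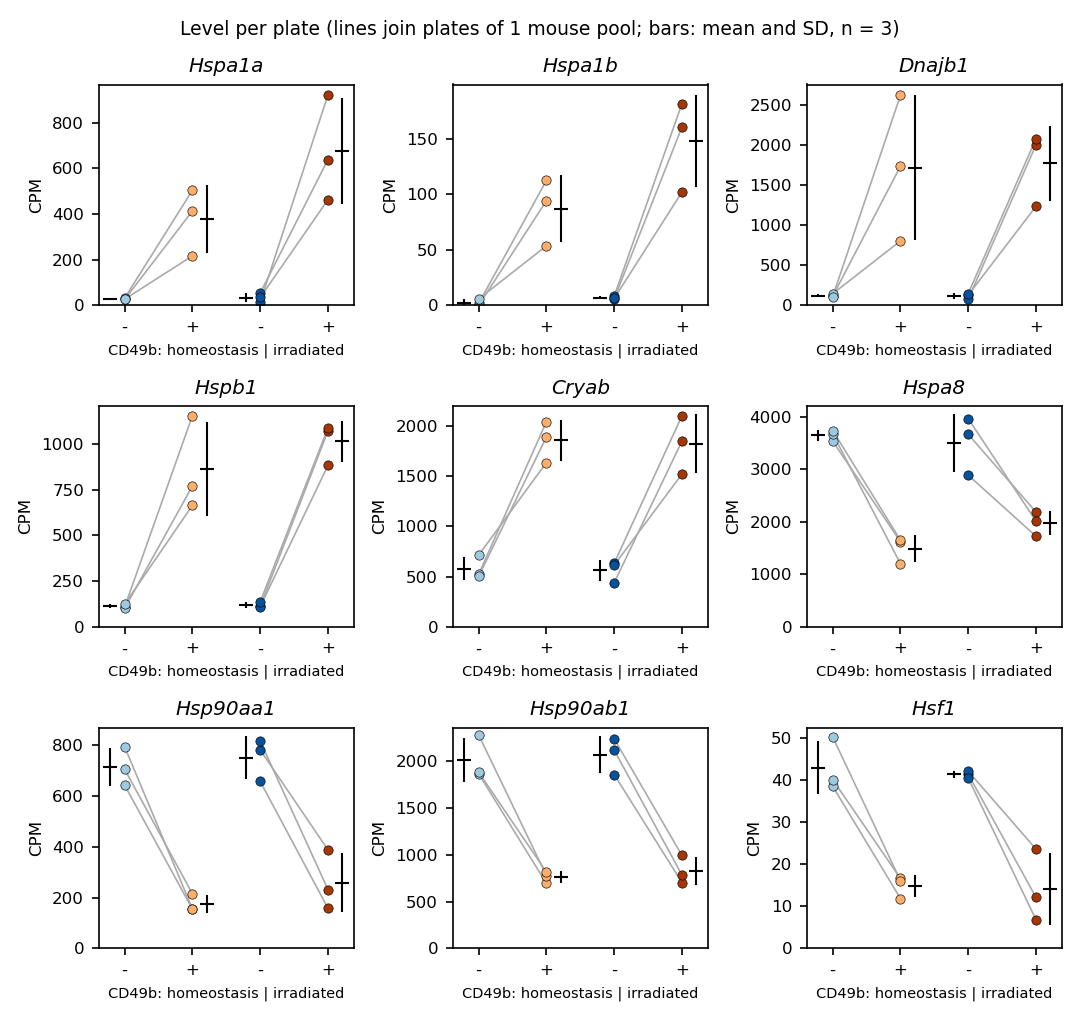
CPM of 9 members on each plate, with CD49b- and CD49b+ plates of the same mouse pool joined by a line and the mean and SD of 3 plates beside them. In all 6 pools the lines rise for Hspa1a, Hspa1b, Dnajb1, Hspb1 and Cryab and fall for Hspa8, Hsp90aa1, Hsp90ab1 and Hsf1.

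The HSP110 proteins reset HSP70, and 3 of 4 exchange factors were lower in CD49b+ cells averaged over treatments and in homeostasis, but only Hspa4l passed after irradiation. Hspa4l stood at 91.2, 127 and 108 and 76.7, 87.2 and 103 CPM on CD49b- plates and at 11.9, 22.2 and 0 and 66.7, 18.9 and 27.2 on CD49b+ plates, where it rested on 25 UMIs; the log2 difference was -2.26 ± 0.35 (SE; adjusted p = 6.05e-06). Hsph1, the inducible HSP110, stood at 91.2, 71.9 and 131 and 43.5, 85.8 and 82.6 CPM against 47.4, 33.3 and 48.3 and 72.7, 52 and 47.6. Its plates overlapped, the log2 difference was -0.76 ± 0.27 (SE; adjusted p = 0.0173), and the adjusted p was 0.0612 without homeostasis CD49b- replicate 3 and 0.0504 without irradiated CD49b- replicate 3. Hsph1 differed by -1.19 ± 0.38 (SE; adjusted p = 0.0124) in homeostasis and by -0.32 ± 0.37 (SE; adjusted p = 0.505) after irradiation. Bag3 stood at 68.4, 92 and 106 and 70.5, 94.5 and 103 CPM against 59.3, 49.9 and 26.8 and 66.7, 61.5 and 40.8, without overlap; the log2 difference was -0.99 ± 0.36 (SE; adjusted p = 0.0259) in homeostasis and -0.65 ± 0.34 (SE; adjusted p = 0.127) after irradiation. For neither gene did the interaction with treatment pass (adjusted p = 0.771 and 0.944). Hspa4 did not pass: 36.8, 61.9 and 48.9 and 60.1, 79.97 and 48.3 CPM against 59.3, 11.1 and 42.9 and 12.1, 47.3 and 61.2, overlapping (-0.52 ± 0.33 (SE; adjusted p = 0.176)).

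Of the 3 mitochondrial members, Hspa9 and Hspd1 were lower in CD49b+ cells and Hspe1 did not pass. The mitochondrial HSP70 Hspa9 stood at 142, 110.4 and 125 and 120.2, 115 and 109 CPM on CD49b- plates and at 71.1, 55.5 and 64.4 and 54.5, 89.8 and 34.02 on CD49b+ plates, all lower (-0.93 ± 0.22 (SE; adjusted p = 8.71e-04)). Hspd1 (HSP60) stood at 179, 196 and 193 and 112, 189 and 245 CPM against 107, 172 and 156 and 72.7, 75.6 and 109, with overlap (-0.75 ± 0.21 (SE; adjusted p = 0.00406)); with each well thinned to 1000 UMIs the adjusted p was 0.271. Hspd1 passed after irradiation (-1.11 ± 0.31 (SE; adjusted p = 0.00621)) and not in homeostasis (-0.38 ± 0.29 (SE; adjusted p = 0.274)), and the interaction did not pass (adjusted p = 0.744). Hspe1 (HSP10), the lid of the HSP60 chamber, stood at 254, 296 and 303 and 282, 292 and 329 CPM against 231, 311 and 257 and 376, 364 and 319.8 and did not pass (0.07 ± 0.15 (SE; adjusted p = 0.706)), with the opposite sign when wells were weighted equally (-0.29).

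Hspa14, an HSP70 relative that binds ribosomes, stood at 87.7, 53.5 and 64.7 and 89.1, 47.98 and 57.7 CPM on CD49b- plates and at 249, 211 and 188 and 152, 165 and 231 on CD49b+ plates. The plates did not overlap (1.57 ± 0.21 (SE; adjusted p = 6.60e-07)), and 7.91% of its exon bases are shared with another gene model on the same strand. Hspa12a and Hspa13, with 33 and 76 UMIs, were too scarce to test. Hsf1 was lower in CD49b+ cells, as Hsp90aa1 and Hsph1 were: 38.6, 40.1 and 50.3 and 41.5, 42.2 and 40.5 CPM on CD49b- plates and 11.9, 16.6 and 16.1 and 12.1, 23.6 and 6.804 on CD49b+ plates, where 16 UMIs were counted. All CD49b+ plates were lower (-1.47 ± 0.35 (SE; adjusted p = 8.58e-04)), so that the transcript of the factor and those of Hspa1a, Hspa1b and Dnajb1 differed between the gates in opposite directions.

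**Figure D3:**
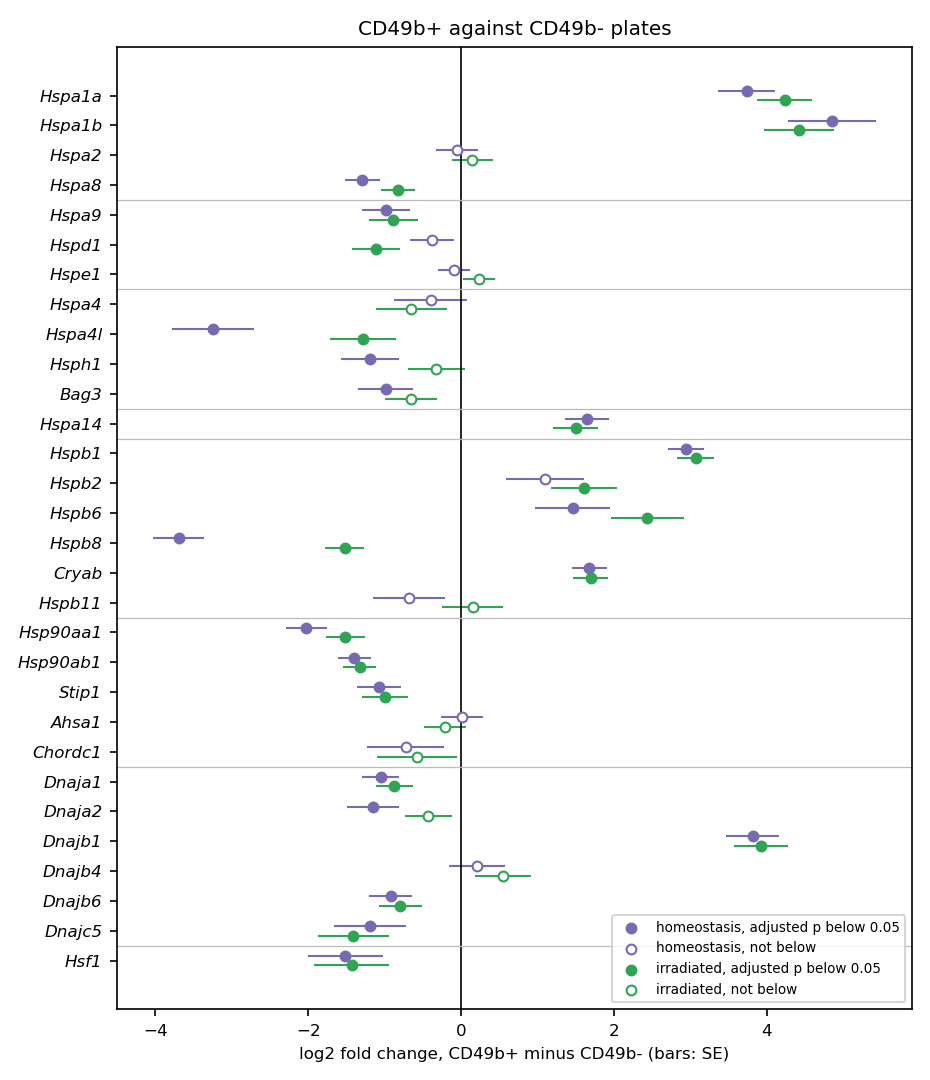
Log2 fold change, CD49b+ minus CD49b-, with its SE, for 30 tested members in homeostasis and after irradiation; filled points passed the threshold. Dnajc6 is left out because it had 0 UMIs in the CD49b+ gate. The direction of every member filled in both treatments is the same.

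Among other proteostasis genes, the lists of chaperonin subunits and of ubiquitin and autophagy genes were mostly lower in CD49b+ cells. Of 39 tested co-chaperones and heat shock factors that are not members, 1 was higher and 14 were lower (median log2 difference -0.37), so that the lower calls lay near the background of 32.4% and the higher calls below that of 29.6%. The higher one was Dnajc24, a J-protein of diphthamide synthesis (1.72 ± 0.36 (SE; adjusted p = 2.71e-04)). Lower ones included Fkbp4, a prolyl isomerase bound to HSP90 (-1.29 ± 0.18 (SE; adjusted p = 1.31e-06)), Bag1, an HSP70 exchange factor (-1.35 ± 0.20 (SE; adjusted p = 3.76e-06)), Cdc37, which brings kinases to HSP90 (-1.06 ± 0.18 (SE; adjusted p = 2.98e-05)), and Dnajc7 (-1.20 ± 0.22 (SE; adjusted p = 5.80e-05)). Of 15 tested subunits of the chaperonin TRiC and of prefoldin, which fold actin and tubulin, 14 were lower and none higher (median -1.11). In homeostasis Cct7 had 672 ± 45.9 CPM (SD, n = 3) in the CD49b- and 149.6 ± 61.3 in the CD49b+ gate. Averaged over treatments, Cct7 differed by -1.77 ± 0.18 (SE, adjusted p = 1.11e-08), and Pfdn2, Pfdn4 and Cct8 by -1.75, -1.87 and -1.21. Of 11 tested ubiquitin and autophagy genes tied to misfolded protein, 8 were lower and none higher (median -1.32), led by the autophagosome proteins Gabarapl1 (-2.49 ± 0.19 (SE; adjusted p = 6.23e-11)) and Map1lc3a (-2.16), the cargo receptor Sqstm1 (-1.46) and the segregase Vcp (-0.96). The median over all genes was -0.13.

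Immediate early genes, which cells switch on within minutes of a stimulus and also during tissue dissociation, were mostly higher in CD49b+ cells, as were Hspa1a, Hspa1b, Dnajb1 and Hspb1 but not the inducible Hsp90aa1 and Hsph1. Of 18 tested, 15 were higher in CD49b+ cells and 1, Dusp1, was lower (median log2 difference 2.27). Together they made up 2.04% to 3.08% of UMIs on CD49b+ plates and 0.476% to 0.682% on CD49b- plates. Those with the smallest p were Socs3 (4.74 ± 0.19 (SE; adjusted p = 9.37e-16)), Nr4a1 (4.87 ± 0.22 (SE; adjusted p = 5.50e-15)), Zfp36 (4.38 ± 0.20 (SE; adjusted p = 7.25e-15)) and Klf2 (4.92 ± 0.29 (SE; adjusted p = 6.50e-13)). Cell isolation and the state of the cells in the tissue cannot be told apart here, and the part of this list in the levels of Hspa1a, Hspa1b, Dnajb1 and Hspb1 was not tested.

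Single wells showed how widely the transcripts were spread. An Hspa1a UMI was found in 228 of 436 CD49b+ wells and in 55 of 528 CD49b- wells. Thinned to 1000 UMIs per well, the share was 18.6% to 50.7% on CD49b+ plates and 1.10% to 5.62% on CD49b- plates; unthinned, the CD49b- share was 7.53% to 15.7%. S100b, a glial transcript, gave a UMI in 10.9% to 26.4% of CD49b- wells, unthinned. On CD49b+ plates the unthinned shares were 81.0% to 92.8% for S100b and 34.3% to 76.8% for Hspa1a. The source of either transcript in CD49b- wells was not tested. Thinned wells with a Dnajb1 UMI made up 45.7% to 68.1% of CD49b+ and 5.62% to 16.5% of CD49b- wells (unthinned 55.7% to 94.4% and 32.3% to 57.6%). For Hspb1 the thinned shares were 38.9% to 54.3% and 5.495% to 10.8% (unthinned 61.1% to 78.3% and 27.0% to 34.1%). Across wells of a CD49b+ plate the Pearson correlation of the log levels of Hspa1a and Dnajb1 ran from -0.14 to 0.23 (median 0.03 over 6 plates of 60 to 84 wells). With the immediate early gene Fos on these plates, Dnajb1 ran from 0.09 to 0.56 (median 0.37), Hspb1 from -0.06 to 0.26 (0.15) and Hspa1a from -0.22 to 0.14 (0.001). On CD49b- plates the medians with Fos were 0.11, -0.27 and 0.10. Wells of a plate share their library and differ in depth, so these values are descriptions only.

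The comparison of irradiated with homeostasis mice asked how cells of the same gate from other mice stood 3 days after 10.5 Gy. In CD49b- (neuronal) cells no member passed, in either direction, among 31 tested by edgeR, by DESeq2 or by limma, and none had an unadjusted p below 0.05; 0.0468% of all genes passed and 4.14% had an unadjusted p below 0.05. The members' log2 differences ran from -0.46 (Hsph1) to 1.22 (Hspa1b), with a median of 0.01 against 0.005 over all genes. Tested on simulated data of this size and depth, the test found 4-fold changes in 83 of 100 genes and 2-fold changes in 37 of 100 on CD49b- plates, and in 59 and 10 on CD49b+ plates. Simulated counts were drawn at the spread typical of a gene's level, and the changed genes were picked at random. They do not give the recovery for the members themselves. Hspa1b was the 1 tested member whose irradiated CD49b- plates all stood above the homeostasis ones (background 6.45% of genes), on 12 against 5 UMIs, and for no member did they all stand below (background 6.34%).

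In CD49b+ (glial) cells 1 of 31 members passed as higher after irradiation and none as lower, against 0.666% and 0.0468% of all genes, and 4 had an unadjusted p below 0.05 (background 10.6%). The member that passed was Hspb8. It stood at 17.8, 33.3 and 21.4 CPM on the homeostasis CD49b+ plates and at 115, 85.1 and 143 on the irradiated ones, on 3, 6 and 4 against 19, 18 and 21 UMIs. All irradiated plates were above all homeostasis plates, and the log2 difference was 2.19 ± 0.40 (SE; adjusted p = 0.00733), 4.58-fold. The plate names in the labels carry a suffix that starts again after every 4 plates, and what it stands for is not given. The first 4 plates by this suffix hold replicate 1 of both treatments, where the level was 17.8 CPM in homeostasis and 115 after irradiation, and the others hold 1 treatment in each 4. On the irradiated CD49b- plates, at 339.9, 281 and 349 CPM, Hspb8 remained higher than on irradiated CD49b+ plates without overlap.

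Neuron markers made up a larger share of UMIs on irradiated CD49b+ replicates 1 and 2 than in homeostasis, but not on replicate 3, where Hspb8 was highest. Hspb8 was itself higher in the CD49b- gate, and the part of neuronal RNA in its difference was not tested. Of 11 tested neuron markers 5 passed as higher in irradiated CD49b+ plates. Without the mixed CD49b+ wells Hspb8 stood at 85.9, 64.8 and 148 CPM on irradiated plates, still above all homeostasis plates, and the log2 difference was 1.94 with an adjusted p of 0.0546, while it was 1.95 (0.0458) without the mixed wells of both gates. Irradiated replicate 3 had no mixed well, 0.0173% of its UMIs from neuron markers and 0 of 60 wells with a UMI of the neuronal Snap25 (95% exact binomial upper limit 5.96%, which limits wells with a UMI and not wells with neuronal RNA). Wells with a Hspb8 UMI numbered 3 of 81, 5 of 70 and 3 of 72 in homeostasis and 9 of 69, 15 of 84 and 16 of 60 after irradiation; without mixed wells the latter were 8 of 68, 12 of 81 and 16 of 60. Snap25 UMIs stood in 1 of 81, 2 of 70 and 2 of 72 wells in homeostasis and in 11 of 69, 7 of 84 and 0 of 60 after irradiation, so that on irradiated replicate 1 the share of wells with Hspb8 was no higher than that with Snap25. The call was also lost without homeostasis CD49b+ replicate 1 (log2 difference 2.03, adjusted p = 0.0590) or replicate 3 (2.12, 0.0783), with wells thinned to 1000 UMIs (2.16, 0.182) and with wells weighted equally in limma (0.35 on the log2(CPM + 100) scale, 0.271).

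**Figure D4:**
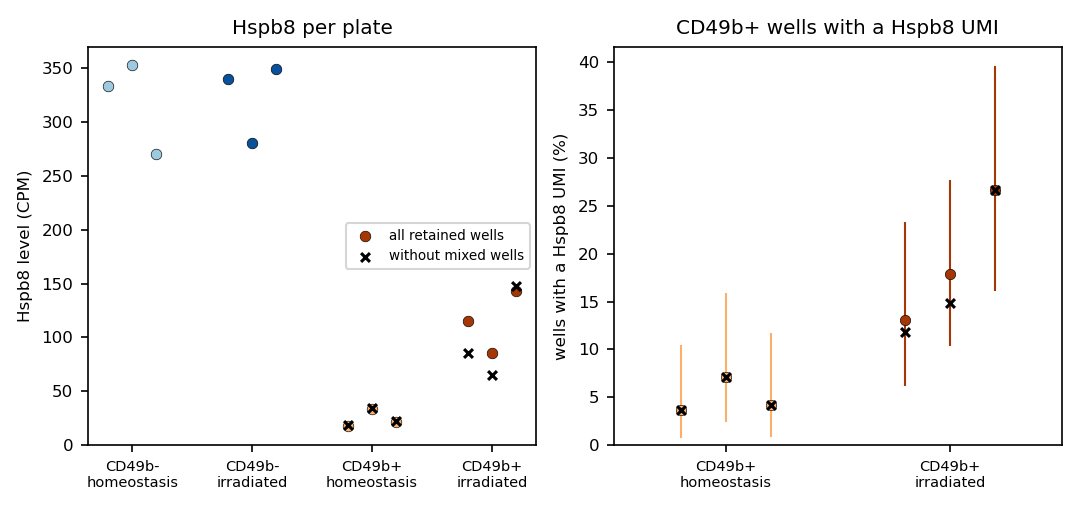
Left, Hspb8 CPM on each plate of the 4 groups; right, percent of CD49b+ wells with a Hspb8 UMI and exact 95% binomial intervals; crosses give CD49b+ plates without mixed wells. The 3 irradiated CD49b+ plates lie above the 3 homeostasis ones in both panels, with and without mixed wells, and below the CD49b- plates.

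Other members did not pass in irradiated CD49b+ cells. Hspa1a had a mean of 378 ± 147 CPM (SD, n = 3) in homeostasis and 674 ± 231 after irradiation, with overlapping plates and a log2 difference of 0.84 ± 0.31 (SE; adjusted p = 0.278). Hspa4l differed by 1.68 ± 0.71 (SE; adjusted p = 0.376) on 6 against 19 UMIs, and Hspd1 by -0.78 ± 0.35 (SE; adjusted p = 0.42). Hspa8, Hspe1 and Dnaja2 did not overlap between the treatments (with Hspb8 4 of 31 tested members higher, background 6.72%, and none lower, background 4.21%), at log2 differences of 0.41, 0.41 and 0.77, and none of the 3 passed. Without the mixed CD49b+ wells Hspa8 did overlap, at 1679, 1240 and 1712 CPM in homeostasis and 1624, 1792 and 2080 after irradiation. Hspe1 and Dnaja2 remained without overlap there. Dnajb1 and Cryab had log2 differences of 0.04 ± 0.31 (SE; adjusted p = 0.989) and -0.03 ± 0.23 (SE; adjusted p = 0.993). The members' median was 0.20, against 0.09 over all genes.

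No gene of the co-chaperone, chaperonin, ubiquitin and autophagy or immediate early lists passed after irradiation in either gate; the smallest adjusted p among them was 0.263 in CD49b- and 0.0561 in CD49b+ cells, both in the immediate early list. In CD49b- cells 4 of 18 immediate early genes and none of the other lists had an unadjusted p below 0.05 (background 4.14% of all genes). In CD49b+ cells the counts for the 4 lists were 3 of 39, 2 of 15, 0 of 11 and 1 of 18 (background 10.6%).

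**Figure D5:**
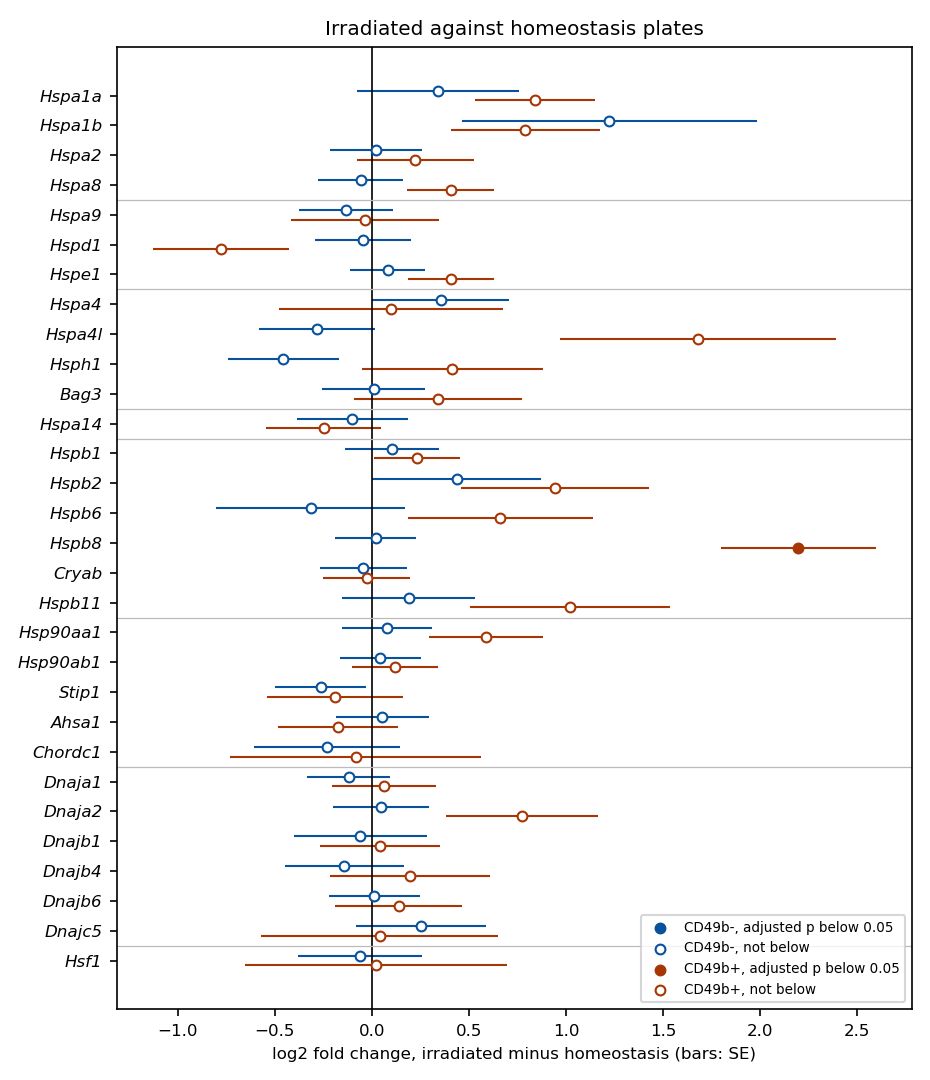
Log2 fold change, irradiated minus homeostasis, with its SE, for 30 tested members in each gate; filled points passed the threshold. Hspb8 in CD49b+ cells is the one filled point; Dnajc6 is left out because it had 0 UMIs in the CD49b+ gate.

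Whether irradiation acted differently in the gates was tested as an interaction. No member passed with edgeR, where 2 of 31 had an unadjusted p below 0.05 (7.59% of all genes) and 0.0117% of all genes passed. For Hspb8 the log2 difference between the irradiation effects was 2.17 ± 0.46 (SE; adjusted p = 0.0885), and for Hspa4l it was 1.96 ± 0.77 (SE; adjusted p = 0.533). DESeq2 called Hspb8 (2.16, adjusted p = 0.0112), as did edgeR without the filter on low counts (2.06, 0.0359) or without irradiated CD49b+ replicate 3 (2.01, 0.0347). Tested on simulated data, a 4-fold interaction was found in 38 of 100 genes.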

How the data were processed

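The deposited table held raw UMI counts per gene and well, with no normalisation by the authors, from 12 plates of 1 cell per well. Per the submitters' processing notes, STAR 2.5.3a and featureCounts 1.5.3 were used, with the builds GRCm38 and GRCh38; how UMIs were collapsed, and whether counting used strand, are not given in the sources used here. The members, gene lists, tests and the rule for named genes were chosen with earlier results of these data known.

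Counts were summed per plate over wells with at least 1000 UMIs and 500 genes. They were fitted in edgeR 4.0.16 (R 4.3.3; TMM, filterByExpr, 4 group means, quasi-likelihood F tests, Benjamini-Hochberg over 8555 genes at 0.05). An SE is the log2 fold change divided by the square root of F, which is approximate. With 3 plates per group, p-values measure the spread between pools of 2 mice. Alternatives were RLE scaling, no filter, DESeq2 1.42.0, limma 3.58.1 on the mean log2(CPM + 100) of wells, looser, stricter and thinned wells, leaving out stray wells or single plates, and terms for plate set (4 plates between restarts of the labels' suffix), age or mouse pool; leaving out mixed wells was added after the data were seen.

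The gates are paired by mouse pool, since the labels name the same mice on both plates; across 8555 genes correlations between the residuals of paired plates were 0.0971, 0.0431 and 0.0587 for homeostasis pools and 0.184, 0.113 and -0.0336 for irradiated pools. Exon overlaps and 31-base words shared with other gene models were computed from GENCODE vM21 (GRCm38), and upstream windows from RefSeq (GRCm38.p6). For each role group, values on all plates are given for up to 4 members with the smallest p between the gates, for members that passed after irradiation, and for Hsf1, Hspa1a, Hspa1b, Hspa8, Hsp90aa1 and Hsp90ab1; for each other list, up to 4 genes per direction are named. Shares of wells have exact 95% binomial intervals, which cover counting error only. The tests were tested on simulated data of 8555 genes.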

Additional observations from a re-analysis of the deposited data

How the results depend on the processing

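No member that passed in a contrast changed its direction under any alternative. Averaged over treatments, the difference between the gates gave 8 higher and 14 to 17 lower members when single plates were left out; the ranges were 6 to 7 higher and 11 to 15 lower in homeostasis, and 7 to 8 higher and 9 to 13 lower after irradiation. With mouse pool as a replicate block the counts were 8 and 16 averaged over treatments, 7 and 14 in homeostasis and 8 and 13 after irradiation, with 0 for the interaction; the block cost Bag3 its call in homeostasis (adjusted p = 0.0529) and no other call. Pools are nested in treatment, so no paired analysis was possible for irradiation within a gate. Thinning wells to 1000 UMIs left 2417 genes to test, of which 807 were higher and 754 lower averaged over treatments. It left 16 members to test, with 5 higher and 7 lower averaged over treatments. Of these members 5 were lower in homeostasis, 5 higher and 4 lower after irradiation, and 0 higher by irradiation in CD49b+ cells. That last count was also 0 without mixed CD49b+ wells and in limma, and 0 to 1 with single plates left out; Hspb8 was lost without homeostasis CD49b+ replicate 1 or 3. The interaction count was 1 without a filter on low counts and in DESeq2, and 0 to 1 with single plates left out. Averaged over treatments, limma gave 7 higher and 22 lower members, and Hspb2 missed the threshold there (adjusted p = 0.0567). Over all 8555 genes limma called 1641 higher and 4466 lower, against 2536 and 2775 in edgeR. Of the 7 members that passed in neither direction in edgeR, 4 passed as lower in limma with the same sign. The sign of the other 3 turned negative, and some of these passed as lower too. Over all genes, irradiation in CD49b+ cells gave 57 higher and 4 lower calls as reported, 21 and 1 without mixed CD49b+ wells, 28 and 2 with plate set as a term, 124 and 22 with no filter, 115 and 13 in DESeq2 and 4 and 0 without homeostasis CD49b+ replicate 3. No well held 20% or more mitochondrial UMIs, so that filter changed nothing. Protein features were not run. CD49b+ plates held fewer UMIs, and the recovery of simulated 2-fold changes was 10 of 100 there.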

Other observations

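Within the CD49b- gate, Hspb1 and Cryab had a weak opposite trend across wells. Of 528 wells, 157 held a Hspb1 UMI and 441 a Cryab UMI, so many held both. The genes below were picked after the values of 5242 genes had been seen, over 517 wells without mixed wells, and correlations across wells of a plate (Pearson, log levels) are descriptions, since wells share their library and differ in depth. Hspb1 and Cryab correlated at -0.24 (median over 6 plates; lowest -0.38, highest -0.14). Cryab went with Scg2, a secretory granule protein (0.49; 0.40 to 0.51), with S100a16, a calcium-binding protein (0.49; 0.48 to 0.57), with Fos (0.48; 0.45 to 0.56) and with the transcription factor gene Nfix (0.48; 0.31 to 0.63). It ran opposite to Nrsn2, a neuronal vesicle membrane protein (-0.62; -0.69 to -0.41), to Cd24a (-0.53; -0.61 to -0.42) and to Myl1 (-0.46; -0.58 to -0.31). Hspb1 had the mirror image, with Myl1 (0.39; 0.12 to 0.50), Cd24a (0.35; 0.20 to 0.48) and Nrsn2 (0.31; 0.22 to 0.58) most alike, and S100a16 (-0.29) and Fos (-0.27) most opposite.

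Hspb1 UMIs were concentrated in few CD49b- wells: the fullest 10% of wells held 59.0% to 73.9% of them on the 6 plates, against 34.8% to 55.9% on the CD49b+ plates. For Cryab they held 23.4% to 36.4% in the CD49b- and 19.0% to 25.2% in the CD49b+ gate. Such shares also rise where UMIs are few, and CD49b- plates held 54 to 88 Hspb1 UMIs and 282 to 427 Cryab UMIs. At like counts on CD49b- plates, Hspa2 (53 to 86 UMIs) had 33.8% to 43.4% and Dnajb1 (53 to 94 UMIs) had 42.6% to 66.2%.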
